A study of Mus musculus with 25 samples.

Results

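The genes described here encode the constitutive proteasome, the protease of the cytosol and nucleus that degrades proteins tagged with ubiquitin. They were chosen by symbol, as protein-coding genes named Psma, Psmb, Psmc or Psmd with a number, without the immunoproteasome genes Psmb8, Psmb9 and Psmb10, and with a mean level of at least 1 CPM. CPM are counts scaled to a common library total after TMM normalization, which aligns libraries on the genes that differ least between them. Of 37 matching genes 35 met the level, out of 47729 genes in the counts table, and all 35 were among the 17799 genes that passed the filter on low counts and were tested. The 2 that did not meet it were Psmb11, the thymus subunit, with a mean of 0.110 CPM and at most 7 counts in a library, and Psma8, the subunit of germ cells, with 0.317 CPM and at most 17 counts. RNA sequencing had been made from total RNA of brain hemispheres of male C57BL/6 mice. The groups are 2, 9, 15, 24 and 30 months of age, with 5 libraries each and 25 in all. Strain, sex and tissue are shared by all of them, and the labels name no treatment or genotype. The labels do not state that each library came from a separate animal, so p-values measure only the spread between these samples, which may be technical.

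The proteasome is built from a core particle, a barrel with outer rings of alpha subunits and inner rings of beta subunits, and a regulatory particle that caps it. The beta subunits Psmb5, Psmb6 and Psmb7 carry the proteolytic sites, and in cells exposed to interferon they can be replaced by Psmb8, Psmb9 and Psmb10. In the regulatory particle a ring of ATPases, the Psmc subunits, unfolds substrates, and the Psmd subunits hold the receptors, the deubiquitinase and the scaffold. Neurons depend on this system for the turnover of synaptic and misfolded proteins, and its transcription is known to be raised by Nfe2l1 when proteasome activity falls short. The 35 genes fell into 7 alpha and 7 beta subunits, 6 ATPases, 11 non-ATPase subunits, and the 3 assembly chaperones Psmd5, Psmd9 and Psmd10, which leave the particle once it is built. The symbol rule also took in Psmc3ip, a partner of a meiotic recombinase that is no part of the proteasome. It stood at 1.93 CPM over 2 to 24 months and was kept in the counts below.

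Library totals ran from 17800113 to 31261121 counts with a median of 23106081. Replicates 2 to 5 of 30 months stood apart from the other 21 libraries in their GC content. The difference in log2 level between the medians of the protein-coding genes richest and poorest in G and C, relative to the younger libraries, was 1.14 to 2.09 in these 4 libraries. It was 0.13 for replicate 1 at the same age, and the 20 younger libraries ranged from -0.25 to 0.15. Comparisons among 2, 9, 15 and 24 months were therefore fitted on the 20 younger libraries alone, and 30 months is given last, with a correction for GC content and with replicate 1 alone. Markers of brain cells were present in all libraries: the 6 neuron markers summed to 7701 to 8214 CPM at 2 months and 7449 to 8023 CPM at 24 months, and none was at 0. Liver transcripts, which a hemisphere should lack, summed to 0.817 to 169 CPM at 2, 9 and 15 months and 50.2 to 227 CPM at 24 months. Choroid plexus markers summed to 35.7 CPM in 1 library of 9 months and to 414 to 711 CPM in the other 19 younger libraries.

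From 2 to 24 months the proteasome genes held nearly constant levels. Leaving out Psmc3ip, the 34 genes together took 0.232% to 0.251% of all counts in each of the 20 younger libraries. In bulk tissue, fewer cells of a type and less RNA per cell cannot be told apart, so this share describes the hemisphere and not a cell type. Per kilobase of the principal transcript, the main coding isoform, the ATPase Psmc5 was highest, at 118 CPM per kilobase over 2 to 24 months, followed by the alpha subunit Psma6 at 74.5 and the beta subunit Psmb4 at 70.7. The lowest of the 34 were Psma3 at 5.33, the chaperone Psmd9 at 6.01 and Psma5 at 9.69 CPM per kilobase. Per kilobase of all annotated exons Psmc5 and Psma6 were again highest, at 112 and 63.0, but Psmc1 came next at 55.9. The lowest were then Psmd9 at 2.15, Psma3 at 3.90 and Psmb3 at 4.95. Under both lengths subunits that form a single ring differed several-fold in CPM per kilobase, a measure that depends on the length assumed.

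**Figure D1:**
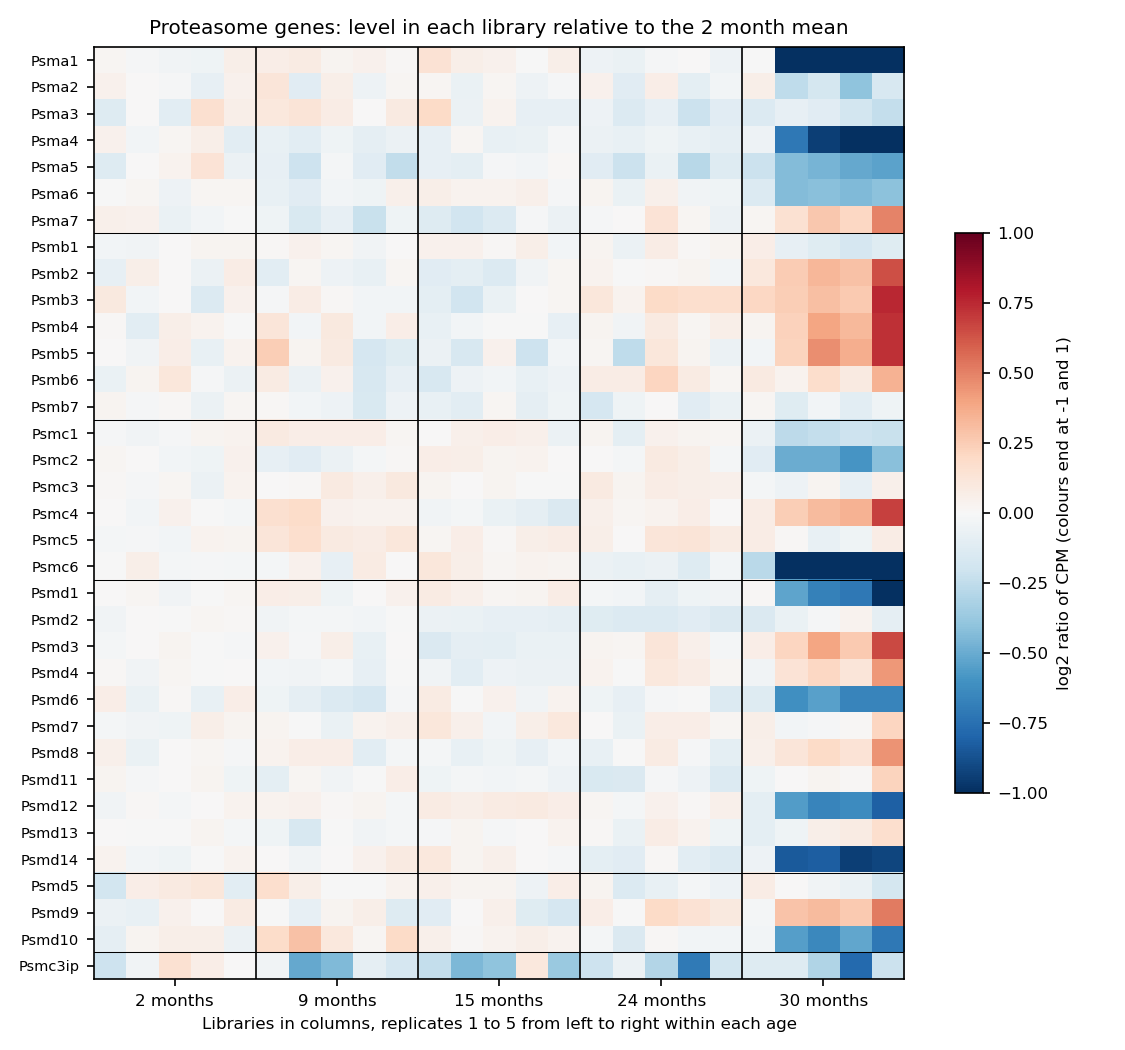
Level of each of the 35 genes (rows, ordered by role: alpha ring, beta ring, ATPases, non-ATPase subunits, assembly chaperones, Psmc3ip) in each of the 25 libraries (columns, by age), as log2 ratio of CPM to the mean of the 5 libraries of 2 months. The 20 younger libraries are pale, with a spread of 0.038 to 0.105 (SD of the log2 ratio over the 34 genes without Psmc3ip). Replicates 2 to 5 of 30 months show both strong blue and strong red rows, with a spread of 0.481 to 0.783.

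The mean log2 level of each particle, relative to 2 months, moved little. For the core it was -0.018 ± 0.041 (SD, n = 5) at 9 months, -0.033 ± 0.018 at 15 months and -0.015 ± 0.045 at 24 months. For the regulatory particle it was 0.018 ± 0.014, 0.0022 ± 0.011 and -0.008 ± 0.033 at the same ages. The libraries of 24 months overlapped with those of 2 months in both particles.

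**Figure D2:**
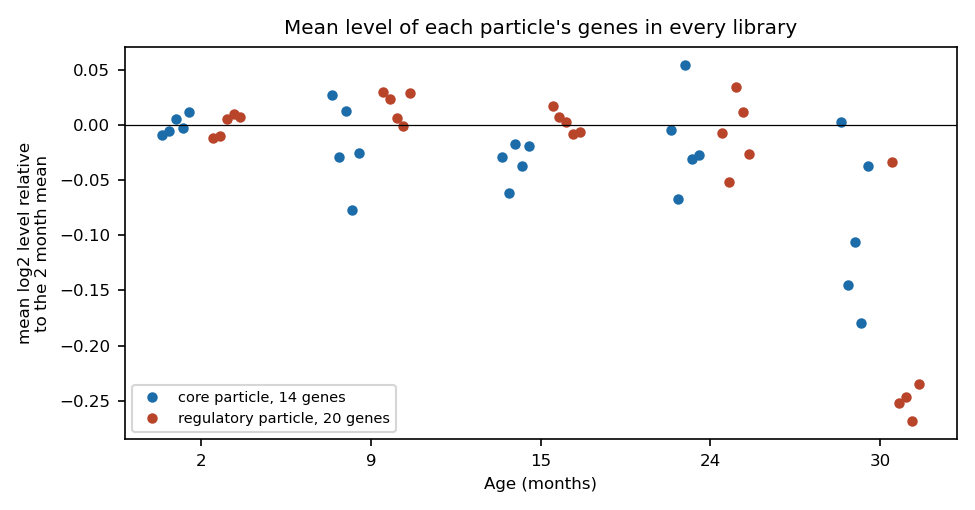
Mean log2 level of the 14 core genes (blue) and the 20 regulatory particle genes (red, chaperones included, Psmc3ip left out) in every library, relative to the 2 month mean, against age in months; each point is 1 library. Levels are not corrected for GC content. The younger libraries lie between -0.078 and 0.054, and the lowest values are the regulatory particle in replicates 2 to 5 of 30 months.

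Between 24 and 2 months 3 of the 35 genes passed an adjusted p of 0.05, 1 higher and 2 lower, against 22.3% of all genes tested. All 3 belong to the regulatory particle: the ATPase Psmc5 rose, and Psmd2 and Psmd11 fell. None of the 14 core genes passed in edgeR's quasi-likelihood test, where 4 had an unadjusted p under 0.05, and none passed in DESeq2. With DESeq2's size factors in the edgeR fit 4 genes fell and none rose: Psmd2, Psmd11, Psmd14 and the alpha subunit Psma5. The fitted log2 fold changes ran from -0.28 for Psmc3ip to 0.14 for Psmb3, with a median of -0.012 beside 0.002 for all genes tested. For 34 of the 35 genes the whole 95% interval lay within a change of 1.25-fold in either direction, the exception being Psmc3ip. The same bound held for 10371 of the 17799 genes tested. It held for 8843 of the 11660 protein-coding genes whose mean level lay in the members' range. Over the 34 genes without Psmc3ip the log2 fold changes were correlated with the GC content of the main coding transcript with Pearson's r = 0.54 and Spearman's rho = 0.62, a description across genes that share libraries. By role they ran from -0.15 to 0.022 in the alpha ring, from -0.077 to 0.14 in the beta ring and from -0.069 to 0.079 among the ATPases. They ran from -0.13 to 0.049 among the non-ATPase subunits and from -0.051 to 0.10 among the chaperones. The median size of the change was 0.042 in the members, 0.11 in all genes tested and 0.088 in the protein-coding genes of the members' level range. The members' intervals reached a median of 0.071 to either side on the log2 scale. In all genes tested this was 0.136, and in the genes of the same level range 0.109.

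**Figure D3:**
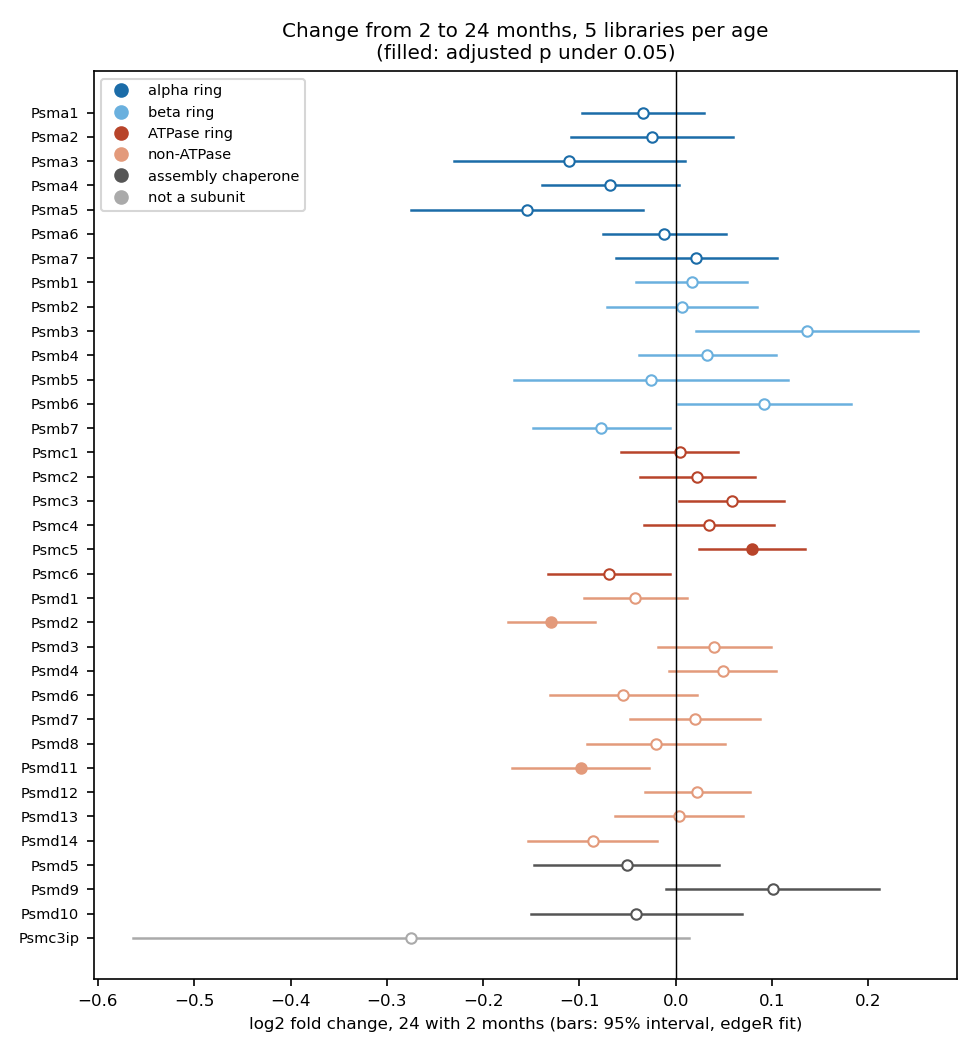
Log2 fold change of each gene at 24 relative to 2 months (points, filled where the adjusted p was under 0.05) with its 95% interval from the edgeR fit (bars), coloured by role. Psmc5, Psmd2 and Psmd11 are filled, and the interval of Psmc3ip is the widest.

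Psmd2, which encodes a large scaffold subunit of the regulatory particle and a docking site for ubiquitin receptors, had the smallest p of the members in the test for any difference among 2 to 24 months (ENSMUSG00000006998, chr16:20651652-20663414, plus strand in GRCm38). Its levels were 172, 176, 175, 178 and 177 CPM in the 5 libraries of 2 months and 171, 173, 174, 172 and 175 CPM at 9 months. They were 169, 167, 165, 166 and 165 CPM at 15 months and 162, 159, 159.7, 163 and 159 CPM at 24 months. Every library of 15 months lay below every library of 9 months, and every library of 24 months below every library of 15 months, whereas 9 and 2 months overlapped. Neither of these steps passed in the main edgeR fit, with adjusted p of 0.104 for 15 with 9 months and 0.0811 for 24 with 15 months. At 24 relative to 2 months the fitted log2 fold change was -0.13 (SE 0.022, 95% interval -0.17 to -0.084, adjusted p = 8.15e-05 in edgeR), a fold of 0.914. It was the only member to pass the test for a linear trend over 2 to 24 months, with a log2 change of -0.14 over 22 months (adjusted p = 3.75e-04 in edgeR), where 16.6% of all genes tested passed.

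The fall of Psmd2 held under each alternative that was run for 24 with 2 months, with log2 fold changes of -0.14 to -0.12 and a highest adjusted p of 0.0204. That highest value came from the fit that also held the 30 month libraries. In the same 2 ages, 2 of 5 astrocyte markers and 3 of 5 microglia markers were higher at 24 months, and 1 of 6 neuron markers was lower. Of 5 oligodendrocyte markers 1 was higher and 1 lower, and of 4 endothelial markers 1 was higher. Astrocyte markers summed to 1287 to 1314 CPM at 2 months and 1427 to 1623 CPM at 24 months, and microglia markers to 237 to 283 and 266 to 299 CPM. The part of cell composition in the change of Psmd2 was not tested.

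The 250 bases upstream of the annotated start of Psmd2 are shown because it is the member whose fall held under each alternative (RefSeq, GRCm38.p6, chr16:20651402-20651651, plus strand, written 5′ to 3′). Capitals mark matches to the letters CCGGAAG, a core bound by ETS factors, and GGGCGG, the GC box bound by Sp factors, on either strand.
Psmd2: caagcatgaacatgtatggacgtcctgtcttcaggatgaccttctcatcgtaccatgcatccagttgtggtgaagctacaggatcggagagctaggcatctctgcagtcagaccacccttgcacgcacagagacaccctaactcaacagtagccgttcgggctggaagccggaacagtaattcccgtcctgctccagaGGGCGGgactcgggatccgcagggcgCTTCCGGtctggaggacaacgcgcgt
Promoter windows of 250 bases before to 50 bases after a start were found for 29 of the 35 genes, 31 windows in all. CCGGAAG occurred in 11 of the 29 genes and 38.7% of their windows, against 8.86% of all 32851 promoters in the table, and GGGCGG in 18 genes and 58.1% of the windows, against 35.7%. These are matches of letters, and binding was not measured.

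The other members that passed in this comparison were less stable. Psmc5, an ATPase at the base of the regulatory particle (ENSMUSG00000020708, chr11:106256154-106263120, plus strand), stood at 147, 148, 147, 153 and 152 CPM at 2 months and 162, 168, 159, 157 and 161 CPM at 9 months. It stood at 151, 156, 150.4, 156 and 157 CPM at 15 months and 155, 149.7, 162, 163 and 158 CPM at 24 months. All 5 libraries of 9 months were above all 5 of 2 months, and those of 24 months overlapped with both. The log2 fold change was 0.11 at 9 months (SE 0.027, adjusted p = 0.00442 in edgeR) and 0.079 at 24 months (SE 0.027, adjusted p = 0.0323). These comparisons share the libraries of 2 months. The call at 24 months was lost under 5 of the 6 alternatives other than leaving out a library, with adjusted p of 0.055 to 0.239 there, and was kept in DESeq2. It was also lost on leaving out any 1 of 6 libraries: replicates 1, 2 and 3 of 2 months and replicates 3, 4 and 5 of 24 months. Psmd11, a scaffold subunit of the lid, fell by 0.10 on the log2 scale (adjusted p = 0.0394 in edgeR). This call was lost without the filter on low counts, with all 25 libraries and with the covariate for liver transcripts (adjusted p = 0.0857, 0.243 and 0.143). With GC correction the value was -0.054 (adjusted p = 0.302). It was also lost on leaving out any 1 of 7 libraries: replicates 1, 2, 3 and 4 of 2 months and replicates 1, 2 and 5 of 24 months.

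The catalytic subunits did not pass the test in any comparison with 2 months up to 24 months. Psmb5, the subunit with chymotrypsin-like activity (ENSMUSG00000022193, chr14:54614119-54618022, minus strand), stood at 16.0, 15.7, 16.8, 15.2 and 16.4 CPM at 2 months and 16.2, 13.4, 17.3, 16.4 and 15.4 CPM at 24 months. At 9 and 15 months it ranged over 14.3 to 19.0 and 13.9 to 16.5 CPM. The ages overlapped throughout, and the log2 fold change of 24 with 2 months was -0.025 (95% interval -0.17 to 0.12). Psmb6, with caspase-like activity (ENSMUSG00000018286, chr11:70525367-70527858, plus strand), stood at 49.8, 53.1, 56.5, 51.7 and 50.1 CPM at 2 months, 55.2, 50.1, 53.7, 46.8 and 49.2 CPM at 9 months and 46.7, 50.4, 51.1, 49.6 and 50.4 CPM at 15 months. At 24 months it stood at 55.2, 55.0, 60.8, 55.3 and 52.8 CPM, each library above the highest of 15 months, while 24 and 2 months overlapped (log2 fold change 0.092, 95% interval 0.0019 to 0.18, adjusted p = 0.137 in edgeR). Psmb7, with trypsin-like activity (ENSMUSG00000026750, chr2:38588036-38644087, minus strand), stood at 68.9, 67.0, 68.2, 64.9 and 68.6 CPM at 2 months and 60.3, 65.4, 67.5, 62.3 and 64.6 CPM at 24 months. Its ranges at 9 and 15 months, 60.9 to 67.9 and 62.8 to 68.3 CPM, overlapped with both, and the log2 fold change of 24 with 2 months was -0.077 (95% interval -0.15 to -0.0061). Exons of Psmb7 overlap 405 bases of Nek6 on the other strand, and since the strand setting of the counting is not given in the sources used here, reads of the pair may be shared.

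**Figure D4:**
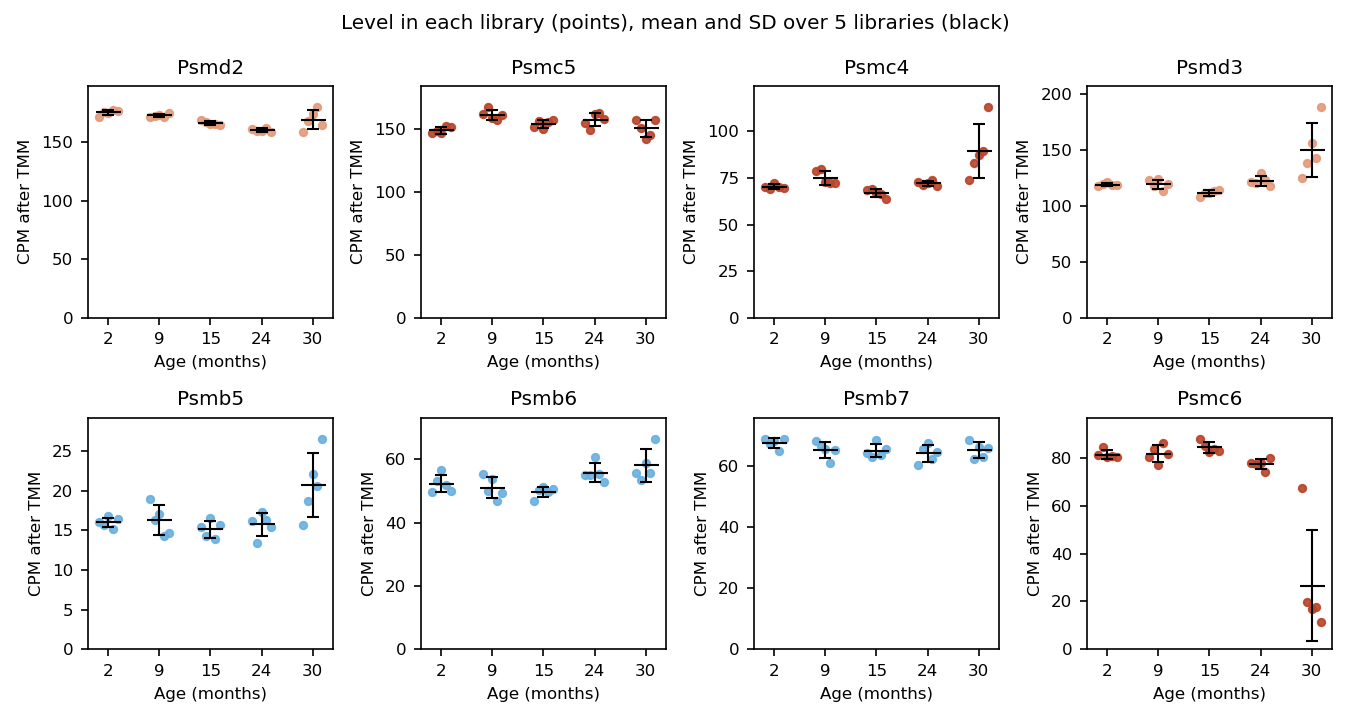
CPM of 8 genes in every library (points) with the mean and SD over 5 libraries (black) against age in months; each panel starts at 0 and has its own scale. Psmd2 steps down from 9 to 24 months, the catalytic Psmb5, Psmb6 and Psmb7 overlap between 2 and 24 months, and Psmc6 in replicates 2 to 5 of 30 months lies at 11.2 to 19.6 CPM.

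Among the younger pairs of ages few members passed. At 9 with 2 months 2 genes rose, Psmc5 and the chaperone Psmd10 (log2 fold change 0.16, adjusted p = 0.0406 in edgeR), where 14.6% of all genes passed. The libraries of Psmd10 overlapped between these ages, and its call was lost in DESeq2 (adjusted p = 0.0597). In edgeR it was lost without the filter on low counts and with all 25 libraries (adjusted p = 0.108 and 0.424), where that of Psmc5 was also lost (0.114). At 15 with 2 months 2 genes fell, Psmd2 (-0.076) and Psmd3 (-0.092), where 12.6% of all genes passed. At 15 with 9 months the ATPase Psmc2 rose (0.090), while the ATPase Psmc4 (-0.16) and the lid subunit Psmd3 (-0.10) fell, where 10.7% of all genes passed. With DESeq2's size factors the calls at 15 with 2 months were instead 1 gene higher, Psmd12, and those at 15 with 9 months were 2 higher and 2 lower. With GC correction Psmd3 went to -0.032 at 15 with 2 months and -0.042 at 15 with 9 months (adjusted p = 0.468 and 0.31 in edgeR). Psmc2 went to 0.044 (adjusted p = 0.388), so these calls ended, while those of Psmd2 and Psmc4 were kept. Oligodendrocyte markers were lower in 3 of 5 at 9 with 2 months and in 3 of 5 at 15 with 2 months. They summed to 4075 to 5392 CPM at 2 months, 4105 to 4847 CPM at 9 months and 4095 to 4527 CPM at 15 months, and their part in these changes was not tested. A test for any difference among the 4 ages passed in 14 of 35 members (40%), near the 44.5% of all genes tested.

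Among the pairs of ages from 2 to 24 months that were compared, 24 with 15 months gave the most calls. Of the 35 genes 11 passed, 7 higher and 4 lower, where 23.6% of all genes passed. Higher at 24 months were Psma7, Psmb3, Psmb6, Psmc4, Psmd3, Psmd4 and Psmd9, and lower were Psma1, Psmc6, Psmd1 and Psmd14, so that both directions occurred within the alpha ring, the ATPases and the non-ATPase subunits. With DESeq2's size factors in place of TMM 11 passed as well, 5 higher and 6 lower, and 9 of them were the same genes. The largest rise was that of the beta subunit Psmb3 (log2 fold change 0.20, adjusted p = 0.00864 in edgeR), and the largest falls were those of Psmd14 (-0.12) and Psmc6 (-0.12).

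The genes that rose were rich in G and C and those that fell were poor in them. In the principal transcript by the APPRIS annotation, GC content was 51.6% to 58.3% in the 7 that rose (median 53.8%) and 37.0% to 46.9% in the 4 that fell (median 43.6%). Over the 34 genes without Psmc3ip, the log2 fold change and this GC content were correlated with Pearson's r = 0.76 and Spearman's rho = 0.81, a description across genes that share libraries. The GC measure of the libraries themselves also differed between the 2 ages, at -0.25 to -0.084 in the libraries of 15 months and 0.058 to 0.15 in those of 24 months. The contrast is shown with 120 coding bases of 2 genes that fell, Psmc6 and Psmd14, and 2 that rose, Psmb3 and Psmd3, each the stretch whose GC content is nearest that of its whole coding sequence (GENCODE M21, GRCm38, 5′ to 3′, G and C in capitals).
Psmc6, coding bases 25 to 144: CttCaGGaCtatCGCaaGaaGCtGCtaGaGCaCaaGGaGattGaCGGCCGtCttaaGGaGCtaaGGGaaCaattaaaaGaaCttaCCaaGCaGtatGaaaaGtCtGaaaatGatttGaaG
Psmd14, coding bases 70 to 189: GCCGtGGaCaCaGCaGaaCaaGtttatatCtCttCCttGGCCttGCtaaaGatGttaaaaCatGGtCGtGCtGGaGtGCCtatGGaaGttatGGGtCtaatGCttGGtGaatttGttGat
Psmb3, coding bases 16 to 135: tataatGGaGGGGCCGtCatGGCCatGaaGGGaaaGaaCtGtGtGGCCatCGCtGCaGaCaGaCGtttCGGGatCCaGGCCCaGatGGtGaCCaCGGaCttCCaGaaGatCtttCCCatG
Psmd3, coding bases 142 to 261: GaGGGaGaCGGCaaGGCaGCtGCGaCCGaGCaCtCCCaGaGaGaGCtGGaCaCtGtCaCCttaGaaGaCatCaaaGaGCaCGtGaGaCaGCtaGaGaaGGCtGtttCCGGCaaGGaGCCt
GC content of the whole coding sequence was 41.8% in Psmc6, 43.1% in Psmd14, 54.6% in Psmb3 and 57.4% in Psmd3. At the third base of the codon G or C stood in 36.0% of codons of Psmc6 and 72.6% of codons of Psmd3.

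With a correction for GC content, most of these calls were lost. When each library was corrected by a smooth curve of its log2 ratios on the GC content of the longest transcript, 3 members passed for 24 with 15 months, Psmb3 and Psmb6 higher and Psmd2 lower, where 11.8% of all genes passed. With the GC content of the principal transcript, a setting added after seeing the data, 1 member passed, Psmd2 (log2 fold change -0.069, adjusted p = 0.0255 in edgeR), where 11.3% of all genes passed. The correlation of change and GC content over the 34 genes was then 0.12. As the correction removes a curve on this same GC content, the lower value follows from it and is no separate result. Under the same principal-transcript correction Psmd3 moved from 0.13 to 0.010 and Psmc6 from -0.12 to -0.0016 on the log2 scale. Others kept more of their size: Psmb3 went from 0.20 to 0.15, Psmd9 from 0.17 to 0.13 and Psma7 from 0.12 to 0.10. Their adjusted p were 0.0783, 0.113 and 0.0928 in edgeR. Psmb6, Psmc4, Psmd4, Psmd14, Psmd1 and Psma1 went to 0.077, 0.054, 0.035, -0.046, -0.051 and -0.024. The fit that also held the 30 month libraries left the fold changes where they were, with 0.20 for Psmb3 and -0.12 for Psmc6, but none of the 11 passed in edgeR, where 3 members had an unadjusted p under 0.05, and DESeq2 on the 20 libraries called 12.

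**Figure D5:**
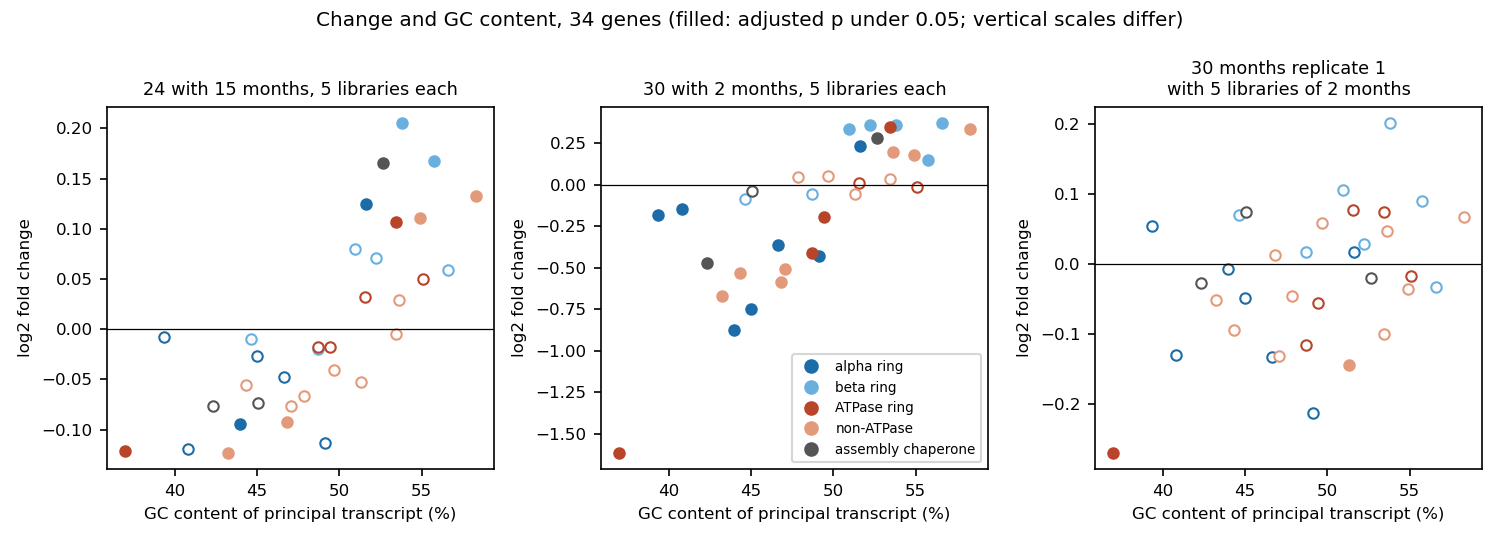
Log2 fold change (vertical, scales differ between panels) against the GC content of the principal transcript in percent (horizontal) for 34 genes, coloured by role and filled where the adjusted p was under 0.05. The left panel compares 24 with 15 months (r = 0.76), the middle panel 30 with 2 months (r = 0.77), and the right panel replicate 1 of 30 months with the 5 libraries of 2 months (r = 0.40).

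Psmc4, Psmd3, Psmd4 and Psmd14 were among the members called at 24 with 15 months. With GC correction by the longest transcript these calls ended (adjusted p = 0.213, 0.266, 0.130 and 0.283 in edgeR). Psmc4, an ATPase (ENSMUSG00000030603, chr7:28041707-28050101, minus strand), stood at 70.4, 69.2, 72.5, 70.3 and 69.6 CPM at 2 months and 78.7, 79.8, 72.6, 72.1 and 72.2 CPM at 9 months, and at 68.8, 69.3, 67.1, 66.2 and 63.6 CPM at 15 months and 72.9, 71.3, 72.1, 73.8 and 70.6 CPM at 24 months. The libraries of 15 months lay below those of both 9 and 24 months. Psmd3, a lid subunit (ENSMUSG00000017221, chr11:98682554-98695979, plus strand), stood at 118, 119, 121, 119 and 118 CPM at 2 months and 123, 118, 124, 113 and 119 CPM at 9 months, and at 108, 112, 111, 113 and 114 CPM at 15 months and 121, 120.5, 129, 123 and 117 CPM at 24 months. Here too 15 months was lowest, without overlap with 2 and 24 months. Psmd4, a ubiquitin receptor (ENSMUSG00000005625, chr3:95032694-95042614, minus strand), stood at 90.8, 87.7, 91.1, 89.7 and 89.9 CPM at 2 months and 88.2, 87.7, 88.6, 84.9 and 89.8 CPM at 9 months, and at 87.7, 83.6, 86.8, 86.2 and 86.3 CPM at 15 months and 92.2, 89.7, 96.9, 94.8 and 91.2 CPM at 24 months. Its highest library of 15 months was below the lowest of 24 months. Psmd14, the deubiquitinase that removes ubiquitin chains from substrates (ENSMUSG00000026914, chr2:61711694-61800376, plus strand), stood at 74.6, 71.5, 70.9, 72.7 and 74.8 CPM at 2 months and 73.0, 70.9, 73.1, 75.0 and 77.4 CPM at 9 months, and at 78.4, 74.5, 75.3, 73.3 and 72.3 CPM at 15 months and 68.2, 67.5, 73.5, 67.7 and 66.1 CPM at 24 months. In 4 libraries of 24 months it was below every library of 2, 9 and 15 months, and replicate 3 lay within their range.

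At 30 months the proteasome genes spread apart, and so did the genes at large. The median size of the log2 change from 2 months was 0.295 in the members and 0.299 in all genes tested. Compared with 2 months, 25 of 35 genes passed, 11 higher and 14 lower, where 58% of all genes tested passed. Those higher had a GC content of 51.0% to 58.3% and those lower of 37.0% to 49.5% in the principal transcript. In the core 5 of the 7 beta subunits were higher, 6 of the 7 alpha subunits were lower and 1 was higher. In the regulatory particle, Psmc3ip included, 5 of 21 were higher and 8 lower. Without correction for GC content, the mean log2 level relative to 2 months was -0.093 ± 0.075 (SD, n = 5) for the core and -0.21 ± 0.10 for the regulatory particle. For the regulatory particle it was -0.034 in replicate 1, and replicates 2 to 5 lay below every younger library. In replicate 1 of 30 months the SD of the log2 ratio over the 34 genes without Psmc3ip was 0.099, within the range of the younger libraries. In replicates 2 to 5 it was 0.481 to 0.783.

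With the correction for GC content 25 members still passed, 12 higher and 13 lower, where 45.6% of all genes passed, and for 30 with 24 months 24 passed, 11 higher and 13 lower, where 40.9% did. With the GC content of the principal transcript 25 passed, 12 higher and 13 lower, where 45% of all genes did. For 30 with 2 months the median log2 fold change of the 14 core genes changed sign on correction. It was -0.068 without correction, 0.078 with the longest and 0.14 with the principal transcript. For the 21 regulatory particle genes, Psmc3ip included, the medians were -0.038, -0.093 and -0.087 in the same order. With replicate 1 as the only library of 30 months 2 members passed, Psmc6 (-0.27) and Psmd2 (-0.14), both lower, where 7.26% of all genes passed. In that fit the single library is assumed to vary like those of the other ages. The correction also rests on which transcript gives the GC content, since the longest transcript does not code for protein in 12 of the 35 genes and its GC content differs by over 3 percentage points from that of the principal transcript in 8. Psmb7 is one of them, with 40.8% against 48.7%: its log2 fold change of 30 with 2 months was -0.054 without correction, 0.73 with the longest and 0.043 with the principal transcript. Psmd11 went from 0.046 to 0.94 and 0.21 in the same way. The ATPase Psmc2 turned from 0.30 with the longest to -0.32 with the principal transcript, and passed the test in both.

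The 4 further members with the smallest p for 30 with 2 months after GC correction by the longest transcript were all lower. Next by p came Psmb7, Psma2 and Psmd11, which were higher under that correction. Psmc6, an ATPase (ENSMUSG00000021832, chr14:45329788-45349705, plus strand), stood at 67.6, 19.6, 16.9, 17.7 and 11.2 CPM in the 5 libraries of 30 months. At 2 months it had been at 81.3, 84.7, 80.5, 80.8 and 80.3 CPM, and at 9, 15 and 24 months it ranged over 74.4 to 88.2 CPM. All 5 libraries of 30 months were below every younger library, replicate 1 by far the least. The log2 fold change of 30 with 2 months was -1.61 without correction and -0.78 with it (SE 0.11, adjusted p = 8.42e-06 in edgeR). With 37.0% it has the lowest GC content of the members in the principal transcript.

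Psmd12, a lid subunit (ENSMUSG00000020720, chr11:107479484-107504362, plus strand), stood at 67.2, 48.6, 45.5, 46.5 and 40.8 CPM at 30 months and 70.2, 72.4, 70.9, 72.0 and 73.5 CPM at 2 months. In between it ranged over 71.0 to 73.9 CPM at 9 months, 74.9 to 76.5 CPM at 15 months and 70.9 to 74.3 CPM at 24 months. Its corrected log2 fold change was -0.43 with the longest and -0.087 with the principal transcript (adjusted p = 3.10e-06 and 0.0373 in edgeR). Psmd6, another lid subunit (ENSMUSG00000021737, chr14:14112174-14120984, minus strand), stood at 55.9, 40.1, 42.0, 38.8 and 38.8 CPM at 30 months and 64.1, 58.3, 61.6, 58.1 and 63.9 CPM at 2 months. It ranged over 54.5 to 60.8 CPM at 9 months, 59.6 to 64.9 CPM at 15 months and 55.8 to 61.0 CPM at 24 months. In both genes 30 and 2 months did not overlap and replicate 1 was nearest to the younger libraries. Psma5, an alpha subunit (ENSMUSG00000068749, chr3:108256926-108279974, plus strand), stood at 10.95, 9.42, 9.22, 8.91 and 8.74 CPM at 30 months and 11.6, 12.7, 13.0, 13.9 and 12.2 CPM at 2 months, and its corrected log2 fold change was -0.39 (adjusted p = 2.12e-05 in edgeR). The younger ranges of Psma5 were 10.7 to 12.5 CPM at 9 months, 11.8 to 12.8 CPM at 15 months and 10.5 to 12.1 CPM at 24 months. With replicate 1 alone and no correction, log2 fold changes from 2 months were smaller: -0.095 for Psmd12, -0.13 for Psmd6 and -0.21 for Psma5. Psmd14 stood at 70.3, 40.8, 41.1, 37.9 and 38.7 CPM and Psmd2 at 159, 168, 174, 180.2 and 165 CPM at 30 months. Replicate 1 of 30 months was at the lower end of 24 months for Psmd2 and above 4 of the 5 libraries of 24 months for Psmd14. Some GC-rich members went the other way: Psmb5 stood at 15.7, 18.7, 22.2, 20.6 and 26.6 CPM, Psmd3 at 125, 138, 156, 143 and 188 CPM and Psmc4 at 74.1, 83.2, 87.6, 89.4 and 113 CPM at 30 months, with replicate 1 the lowest library in each. The remaining named members stood at 55.7, 53.6, 58.9, 55.5 and 66.5 CPM (Psmb6), 68.4, 62.1, 66.3, 62.9 and 65.7 CPM (Psmb7), 157, 151, 142, 145 and 158 CPM (Psmc5) and 87.7, 98.5, 104, 97.9 and 121 CPM (Psmd4). Not every GC-rich member rose, though 11 members passed as higher at 30 with 2 months without correction. Psmc3 (55.1% GC, log2 fold change -0.014) and Psmd13 (53.4% GC, 0.034) did not pass.

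Genes that work with the proteasome were taken from lists by role. From 2 to 24 months all 3 immunoproteasome genes rose: Psmb9 by 1.32, Psmb8 by 0.93 and Psmb10 by 0.20 on the log2 scale (adjusted p = 5.96e-04, 0.00532 and 0.0234 in edgeR). In this comparison 22.3% of all genes tested passed. Psmb10 overlapped between the 2 ages, with 19.3 to 23.0 CPM at 2 months and 21.6 to 26.3 CPM at 24 months. At 15 with 2 months it stood at -0.041 (adjusted p = 0.748 in edgeR), while Psmb8 and Psmb9 were higher by 0.72 and 0.82. Psmb9 stood at 1.51, 1.33, 1.38, 1.35 and 1.28 CPM at 2 months and 5.57, 2.93, 3.88, 2.57 and 2.13 CPM at 24 months, without overlap. These levels remain low beside those of Psmb6, the subunit it can replace. Exons of Psmb9 overlap 212 bases of Tap1 on the other strand. Microglia express these genes, and 3 of 5 microglia markers were higher at 24 months as given above; their part in these rises was not tested.

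The counts of the lists that follow are small and stand beside 22.3% of all genes called in the same comparison, so nothing is read from them about a list. Of 5 activator and inhibitor genes 1 rose and 1 fell. Psme1, a subunit of the activator cap that pairs with the immunoproteasome, rose by 0.28 and Psme4, a nuclear activator, fell by 0.22 on the log2 scale. Of 5 matched assembly chaperones outside the members 1 rose, Psmg4 (0.23). Of 6 receptors and enzymes bound to the proteasome 1 fell, the ubiquitin ligase Ube3c (-0.079). Of 8 shuttle and segregase genes 1 fell, Nploc4 (-0.12), a cofactor of the segregase Vcp. Of 7 genes of transcriptional control 2 rose, Nfe2l2 (0.23), the regulator of the antioxidant response, and Nfe2l1 (0.071), which is known to drive proteasome genes. Of 6 ubiquitin and E1 genes 1 fell, the activating enzyme Uba6 (-0.30). Ubiquitin genes have near-identical copies, so their counts are uncertain.

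Nfe2l1 and Nfe2l2 act through the antioxidant response element, and the letters TGACNNNGC, its core, were searched on both strands of the promoter windows. They occurred in 5 of the 29 matched members and 16.1% of their windows, against 12.4% of all 32851 promoters. The matches are shown in capitals with their surroundings (RefSeq, GRCm38.p6, 5′ to 3′ on the strand of the gene; a match on the other strand appears reversed).
Psmb5, chr14:54618024-54618052: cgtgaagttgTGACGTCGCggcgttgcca
Psmb6, chr11:70525338-70525366: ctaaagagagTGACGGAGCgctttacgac
Psmc6, chr14:45329587-45329615: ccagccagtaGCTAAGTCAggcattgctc
Psmd9, chr5:123228149-123228177: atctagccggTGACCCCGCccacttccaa
Psmd12, chr11:107479278-107479299: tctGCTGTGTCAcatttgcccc
None of these 5 members passed the test at 24 with 2 months in edgeR or DESeq2. In edgeR 3 of all 35 members and 22.3% of all genes tested passed. The log2 fold changes were -0.025 for Psmb5, 0.092 for Psmb6, -0.069 for Psmc6, 0.10 for Psmd9 and 0.022 for Psmd12. With so few matches nothing is read from this about Nfe2l1 or Nfe2l2, whose part was not tested. Exons of Psmd9 overlap 1849 bases of an RNA gene on the other strand, and 9 other members overlap another gene in their exons.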

How the data were processed

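RNA of 25 brain hemisphere libraries was analysed from 1 table of raw counts per gene deposited by the authors. Per the submitters' processing notes, CASAVA 1.7, STAR 2.4.1d and featureCounts 1.4.6-p4 were used with GRCm38. The annotation release and the strand setting are not given in the sources used here. The authors also deposited RPKM values, whose sums followed the library totals, so they were not used. Symbols, coordinates and GC content came from GENCODE M21 (47310 of 47729 identifiers matched, 419 did not), promoters from RefSeq.

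Counts were filtered with filterByExpr, scaled by TMM and tested with edgeR 4.0.16 (quasi-likelihood, robust, Benjamini-Hochberg over 17799 genes) in R 4.3.3. Ages of 2 to 24 months were fitted on 20 libraries and 30 months on all 25. The GC correction was an offset from a loess curve (span 0.5, degree 2) of each library's log2 ratio to the younger mean on the GC content of the longest transcript. DESeq2 1.42.0, limma 3.58.1, size factors, filters, covariates and left-out libraries were alternatives. The members, lists and tests were chosen with earlier results of these data known. Values in every library are given for the 3 catalytic subunits, for 6 further members with the smallest p in the any-age test and for 4 with the smallest p in 30 with 2 months after GC correction. Called genes of each partner list are named, up to 4 a list. Paaf1 was not matched. Replicates of an age differed by more than sampling noise (lowest chi-square per degree of freedom 1.55). The scripts' tests were tried on simulated data.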

Additional observations from a re-analysis of the deposited data

Results flagged for a closer look

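In 5 of 65 groups of 5 libraries, for the 13 members with values in every library, 1 library lay far from the other 4, which chance gives in about 1 in 20 groups. Replicate 1 of 30 months did so for Psmd14, at 70.3 CPM beside 37.9 to 41.1 CPM, for Psmc6, at 67.6 CPM beside 11.2 to 19.6 CPM, and for Psmd6, at 55.9 CPM beside 38.8 to 42.0 CPM. Its GC measure of 0.13 lies within the younger range, and those of the other 4 libraries are 1.14 to 2.09. Replicate 3 of 24 months stood at 73.5 CPM for Psmd14, beside 66.1 to 68.2 CPM. Replicate 2 of 2 months stood at 84.7 CPM for Psmc6, beside 80.3 to 81.4 CPM.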

How the results depend on the processing

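The numbers of members called depended on the settings as follows. Without a filter on low counts they were 1 for 9 with 2 months, 0 for 15 with 2 (4 with an unadjusted p under 0.05 in edgeR; DESeq2 called 3), 1 for 24 with 2 and 1 for 15 with 9 months. With all 25 libraries in the edgeR fit they were 0 for 9 with 2, 15 with 2 and 15 with 9 months (1 each at an unadjusted p under 0.05), 1 for 24 with 2 months, 0 for 24 with 15 months (3 unadjusted) and 1 in the any-age test. With GC correction they were 1 for 15 with 2, 24 with 2 and 15 with 9 months, 3 for 24 with 15 months and 7 in the any-age test, and 1 for 24 with 15 months by the principal transcript. With DESeq2's size factors they were 1 for 15 with 2 months, Psmd12 in place of Psmd2 and Psmd3, and 2 in the trend. With a covariate for liver transcripts they were 1 for 15 with 2 and 24 with 2 months. With replicate 1 as the only library of 30 months, 2 were called for 30 with 2 months, 2 with GC correction and 1 for 30 with 24 months. In that fit log2 fold changes changed sign for Psmb5 (-0.033), Psmd4 (-0.035), Psmd1 (0.013) and Psmd9 (-0.020) without correction. With correction they did so against 2 months for Psmd1 (0.027), Psmc2 (-0.060), Psmd9 (-0.021), Psma1 (0.024) and Psma3 (-0.070), and against 24 months for Psmc5 (0.0077), Psmd14 (0.040), Psmd1 (0.054), Psmc2 (-0.12), Psma1 (0.030) and Psma3 (-9.6e-04). With the principal transcript Psmc2 turned to -0.32 against 2 and -0.35 against 24 months. The causes were not tested. Leaving out 1 library gave 1 to 3 calls for 9 with 2 months, 0 to 3 for 15 with 2, 1 to 4 for 24 with 2, 1 to 5 for 15 with 9, 8 to 11 for 24 with 15, 1 to 2 in the trend, 11 to 16 for any age, 23 to 25 for 30 with 2, 24 to 27 with GC correction and 20 to 27 for 30 with 24 months with GC correction. For 9 with 2 months it was 1 without replicates 1, 2 or 5 of 2 months or 1 or 2 of 9 months. For 15 with 2 months it was 0 without replicate 4 of 2 months and 1 without replicates 2, 3 or 5 of 2 months or 1, 2 or 3 of 15 months. For 24 with 2 months it was 1 without replicate 2 of 2 months or 5 of 24 months. For 15 with 9 months it was 1 without replicate 3 of 9 months or 1, 2 or 3 of 15 months, and 5 without replicate 5 of 9 months. The trend gave 2 without replicate 5 of 2 months, 1 of 9 months or 3 of 24 months. No paired analysis was possible because the replicate numbers follow accession order and pair no samples.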
